A study of Bos taurus with 15 samples.

Results

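The genes described here carry glucose into the cell, break it down to lactate, and build or empty the glycogen store. A list of 42 gene symbols was drawn up by pathway membership, and 41 of them matched a row name in all 6 comparison tables of the series, out of 13896 genes in those tables. HK2 was not analysed here. The 41 genes fell into 9 roles, namely glucose transporters, hexokinases, upper and lower glycolysis, lactate dehydrogenases, the enzymes that set fructose 2,6-bisphosphate, gluconeogenic steps, and the breakdown and synthesis of glycogen.

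Total RNA was measured in subcutaneous fat from the dewlap of primiparous Holstein cows around their first calving, in 15 libraries and 5 groups of 3. One group was sampled at -4 weeks peripartum (wkpp), ahead of any experimental feeding, so in comparisons with it the time around calving and the start of the diets cannot be told apart. The others were cows on a low energy diet with a severe negative energy balance (SNEB) at 1 and at 16 wkpp, and cows on a high energy diet with a moderate negative energy balance (MNEB) at 1 and at 16 wkpp. The sequenced cows were those with the most extreme energy balance of their group, so diet, severity and that selection cannot be told apart, all cows had fasted before the biopsy, and for the libraries at -4 wkpp the sources used here do not say which cows they came from. The titles also carry a tag, m1 or m2, with a single value within each group and no stated meaning, which cannot be told apart from group either.

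In adipocytes glucose entry and glycolysis serve chiefly to supply glycerol 3-phosphate and acetyl units for fat synthesis, and the tissue also releases part of its glucose carbon as lactate. In ruminants little glucose is absorbed from the gut, acetate is the main precursor of fatty acids in fat tissue, and after calving the udder takes up most of the circulating glucose to make lactose. Glycogen in fat is a small store that turns over with feeding and fasting.

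The deposited tables hold, for each comparison of 6 libraries, an average of size-factor-scaled reads per gene, once over exons and once over the whole gene, introns included. The whole reads behind those averages were recovered for each library, and they are given here as normalised exon counts, that is, exon reads divided by a size factor common to the 15 libraries. The recovered libraries carry a group but no name, so they are called library 1, 2 and 3 of a group, with library 1 the deepest, and the same number in different groups marks no common animal. Genes were tested per comparison, and a gene is called changed where its adjusted p was below 0.01 in both the exon and the whole gene reads with the same sign. Differences are log2 of the first group over the second, with the standard error from the exon reads, and no levels are compared between genes because gene lengths in the authors' annotation were not used here.

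Exon reads on genes ranged from 7598068 to 13872022 in the 9 libraries at -4 wkpp and of SNEB cows, and from 1934198 to 7197976 in the 6 MNEB libraries, so values of the MNEB groups are less precise. The study lists similar total reads for these libraries, but a lower aligned percentage for every MNEB library than for any other. That difference cannot be told apart from group, and its part in the results was not tested. Summed levels of 10 adipocyte genes were 64578 to 69279 at -4 wkpp, 75192 to 91138 in SNEB at 1 wkpp, 45191 to 51861 in SNEB at 16 wkpp, 23330 to 59880 in MNEB at 1 wkpp and 12012 to 44601 in MNEB at 16 wkpp, with PLIN1, the lipid droplet coat protein, at 2992 or more in every library. The genes of this list did not move together. Against -4 wkpp, all SNEB libraries at 1 wkpp were higher for FABP4 (17677 to 23652 against 36657 to 49013), PLIN1 and LIPE and lower for THRSP (4719 to 10914 against 140 to 817), GPD1 (4982 to 5258 against 757 to 1340), AQP7, CIDEA, CIDEC and LEP, with overlap for PNPLA2. All MNEB libraries at 1 wkpp were higher than those at -4 wkpp for LIPE (4922 to 8331 against 3017 to 4240) and PNPLA2 and lower for the other genes except FABP4, which overlapped. Sums of 5 macrophage genes were 4975 to 13710 in the -4 wkpp and SNEB libraries and 1969 to 6981 in the MNEB libraries. Sums of 9 lymph node genes were 2479 to 5936 and 212 to 861 in the same sets, mostly CR2 (2298 to 5379 and 130 to 667). Sums of 12 skeletal muscle genes were 116 to 382 against 1204 to 4161. Most of the MNEB muscle sums was TNNT3 alone (54.1 to 338 against 1170 to 3940). The contractile genes ACTA1, MYH1, MYH2 and MYH7 stood at 94.6, 48.6, 16.2 and 27 in library 2 and at 0, 51.5, 36.8 and 51.5 in library 3 of MNEB at 1 wkpp, against at most 15, 16.8, 12.1 and 22.4 in the -4 wkpp and SNEB libraries. CKM and MYLPF were at most 4.89 and 10.8 in all libraries. Endothelial genes (8) summed to 21032 to 39519 and 26213 to 66298, and 7 erythrocyte genes to 15.9 to 303 and 19.8 to 386, with HBM at 0 in all libraries. Sums of 11 keratinocyte genes were 301 to 979 at -4 wkpp and 8.49 to 463 elsewhere. In bulk tissue, fewer cells of a type and less RNA per cell cannot be told apart, and the part of these differences in the results below was not tested.

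**Figure D1:**
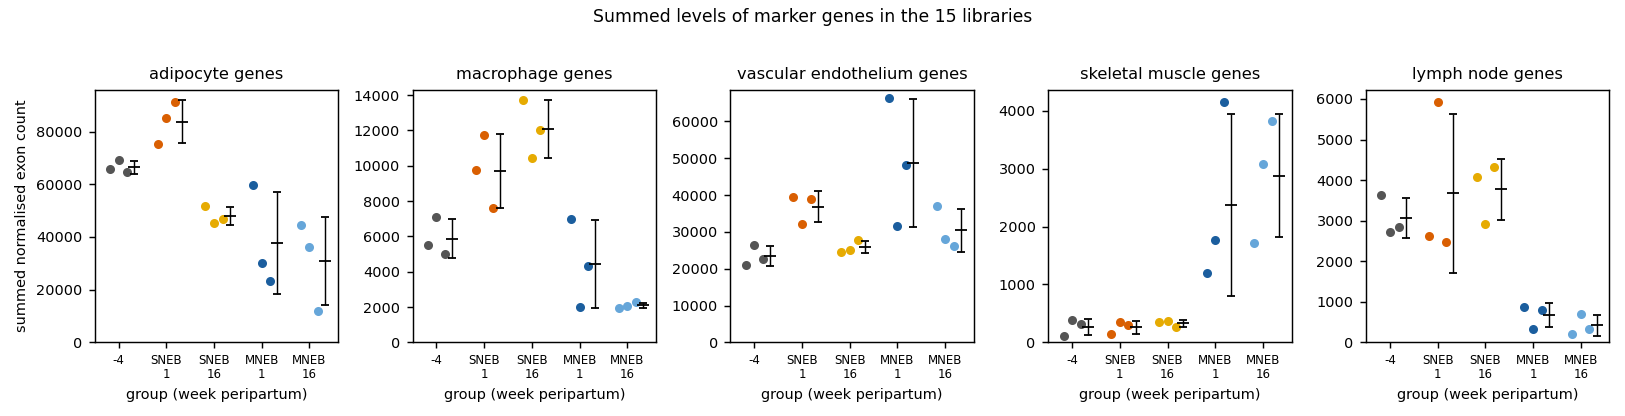
Summed normalised exon counts (y axes, from 0) of marker genes in the 5 groups (x axes, week peripartum). Points are libraries in order of depth, and the bar is the mean with the SD (n = 3). All 6 MNEB libraries lie at 861 or below for lymph node genes and at 1204 or above for skeletal muscle genes, outside the ranges of the other 9. These separations rest mostly on single genes, CR2 in the lymph node list and TNNT3 in the skeletal muscle list.

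Of the 41 genes, limma called 3, each in a single comparison. LDHB was higher at -4 wkpp than in MNEB cows at 1 wkpp, and PC and PPP1R3C were lower in SNEB than in MNEB cows at 16 wkpp. Between -4 wkpp and MNEB at 1 wkpp 38 of the genes could be tested, and 1 was called, beside 188 of 10392 genes in all (1.81%). That total was 218 without library 1 of MNEB at 1 wkpp and 1 to 19 without any of the other 5. With exon reads alone 9 were called there, 8 higher at -4 wkpp and 1 lower, against 7.16% and 9.32% of all genes tested. Between SNEB and MNEB at 16 wkpp 2 of 38 were called, both lower in SNEB, beside 3.62% of all genes (2.58% lower in SNEB), a total of 367 genes that was 34 to 122 with a library left out. Between -4 wkpp and SNEB at 1 wkpp none of 39 was called by limma, beside 4 genes in all (0.0378%), and 13 of the 39 and 1544 genes in all had an unadjusted exon p under 0.05, while limma with quality weights called 3 (2.76% of all genes). With a library left out the 13 ran from 8 (without library 1 of SNEB) to 20 (without library 2 of SNEB) and the 1544 from 950 (without library 1 at -4 wkpp) to 2379 (without library 2 of SNEB). Without that last library 2 listed genes and 85 genes in all were called there, and without any of the other 5, or with library totals as scaling, no gene was called. No gene of any kind was called by limma between 1 and 16 wkpp in MNEB or in SNEB cows, or between SNEB and MNEB at 1 wkpp (0% of genes in each), and unadjusted exon p under 0.05 was found there for 20 of 38, 4 of 39 and 12 of 39 listed genes and for 1324, 753 and 3346 genes in all. With a library left out the 4 of 39 in SNEB cows ran from 0 (without library 3 at 1 wkpp or library 1 at 16 wkpp) to 10 (without library 2 at 1 wkpp), and the 753 from 317 (without library 1 at 1 wkpp) to 1739 (without library 2 at 1 wkpp). The 12 of 39 between SNEB and MNEB at 1 wkpp ran from 8 (without library 3 of MNEB) to 18 (without library 1 of MNEB). Tests with quality weights called 0, 0 and 1 listed genes in these 3 comparisons (and 7.72% of all genes in the last), and limma-trend 0 in each. Between SNEB and MNEB at 1 wkpp the count over all genes was 447 without library 1 of MNEB, with 2 listed genes, 319 with all 15 libraries in 1 fit and 212 with exon reads alone.

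The libraries themselves separated for more of the genes. At -4 wkpp all 3 libraries lay above all 3 of MNEB at 1 wkpp for 16 of the 38 genes and below them for 3, where 23.0% and 23.8% of all tested genes did so. From MNEB at 1 to MNEB at 16 wkpp, 13 of 38 genes had every library at 1 wkpp below every library at 16 wkpp and 2 had the reverse, with 10.3% and 9.80% of all genes. At -4 wkpp against SNEB at 1 wkpp the counts were 10 above and 3 below of 39, with 10.5% and 9.27% of all genes. At 1 wkpp SNEB lay above MNEB for 10 of 39 genes and below for 4, against 19.2% and 20.5%, and at 16 wkpp for 2 and 4 of 38, against 22.2% and 22.0%. From SNEB at 1 to SNEB at 16 wkpp no gene was above and 2 were below, against 8.00% and 4.12%.

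The median difference of the tested members was 0.39 between -4 wkpp and MNEB at 1 wkpp, where the median of all genes was 0.04. It was 0.34 beside -0.03 between -4 wkpp and SNEB at 1 wkpp. From 1 to 16 wkpp it was -0.64 beside -0.01 in MNEB cows and -0.18 beside -0.01 in SNEB cows. Between SNEB and MNEB it was 0.41 beside 0.07 at 1 wkpp and -0.16 beside 0.03 at 16 wkpp. With a library left out the median at 1 wkpp went as low as 0.21 (without library 2 of SNEB), and that at 16 wkpp ran from -0.45 (without library 2 of MNEB) to 0.00 (without library 3 of MNEB). That between -4 wkpp and SNEB at 1 wkpp ran from 0.19 without library 3 to 0.54 without library 2 of SNEB, and that from 1 to 16 wkpp in SNEB cows from -0.29 without library 2 to -0.08 without library 3 of SNEB at 1 wkpp. Comparisons that use the same libraries are not independent of each other, and the -4 wkpp and MNEB 1 wkpp libraries each enter more than a single comparison.

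**Figure D2:**
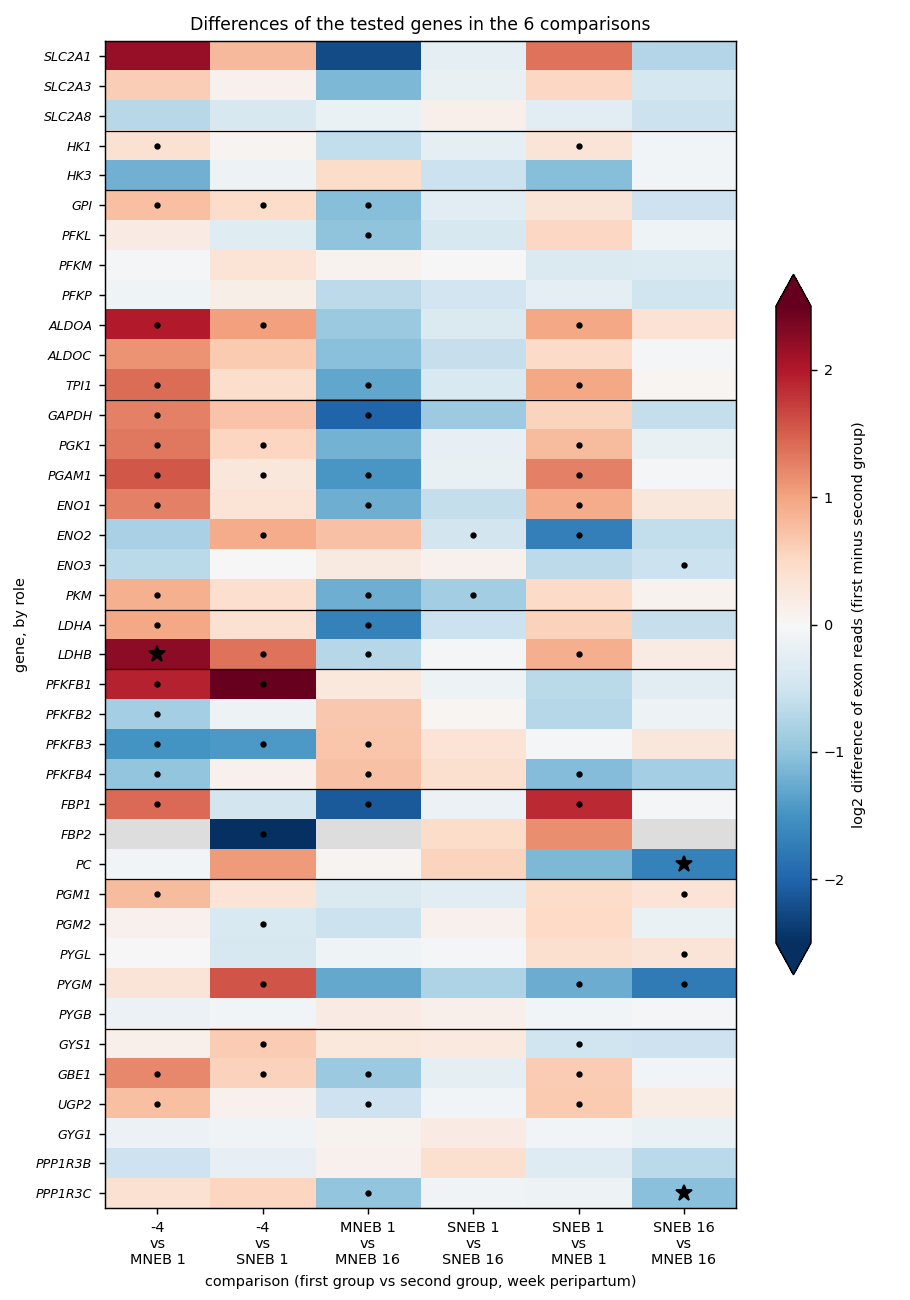
Colour gives the log2 difference of exon reads (first minus second group) for 39 genes (rows, grouped by role) in the 6 comparisons (columns), grey where a gene was too low to test. Stars mark called genes (LDHB, PC and PPP1R3C) and dots mark genes that were not called but whose 3 libraries per group did not overlap. The dots are densest in the left column, -4 wkpp vs MNEB 1 wkpp, where 16 genes lay above and 3 below without overlap, LDHB included. Of all genes tested in that comparison, 23.0% lay above and 23.8% below without overlap.

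SLC2A1 encodes GLUT1, the transporter for basal glucose uptake in most cells. Its normalised exon counts were 769, 204 and 536 at -4 wkpp, 311, 355 and 129 in SNEB at 1 wkpp and 247, 662 and 139 in SNEB at 16 wkpp. In MNEB cows they were 59.4, 257 and 91.9 at 1 wkpp and 670, 131 and 1075 at 16 wkpp. The libraries of every group overlapped those of the others with 503 ± 284 (SD, n = 3) at -4 wkpp, 136 ± 106 in MNEB at 1 wkpp and 625 ± 474 in MNEB at 16 wkpp. The difference between -4 wkpp and MNEB at 1 wkpp was 2.17 ± 0.63 (SE), with adjusted p = 0.025 for exon and 0.04 for whole gene reads, so it was not called, and it was 1.45 without library 1 of MNEB. SLC2A1 had only 25 to 95 exon reads in the 3 libraries of MNEB at 1 wkpp.

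SLC2A3 encodes GLUT3, a high-affinity transporter of neurons and white blood cells. Its counts were 1016, 921 and 1164 at -4 wkpp, 888, 1107 and 885 in SNEB at 1 wkpp and 904, 1326 and 1014 in SNEB at 16 wkpp. They were 946, 473 and 640 in MNEB at 1 wkpp and 1572, 691 and 2822 in MNEB at 16 wkpp. Library 3 of MNEB at 16 wkpp stood above all the others, and without it the difference from 1 to 16 wkpp in MNEB cows went from -1.13 ± 0.47 to -0.66. SLC2A8, an intracellular transporter, ranged from 33.1 to 121 with overlapping groups, and SLC2A5, the fructose transporter, was at 8.11 or less in every library and was not tested.

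HK1, the hexokinase of most tissues, which traps glucose as glucose 6-phosphate, was at 1143 to 1372 at -4 wkpp and at 808 to 1049 in MNEB at 1 wkpp, without overlap, for a difference of 0.38 ± 0.21 (adjusted p = 0.19). HK3, the hexokinase of white blood cells, ranged from 20.5 to 149 over the 15 libraries, and its widest spread was within SNEB at 1 wkpp. Neither hexokinase was called in any comparison.

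In upper glycolysis, from glucose 6-phosphate to the triose phosphates, ALDOA, TPI1 and GPI had all libraries at -4 wkpp above all of MNEB at 1 wkpp. ALDOA, the aldolase that splits fructose 1,6-bisphosphate, was at 10342, 11116 and 8809 at -4 wkpp. In SNEB cows it was at 5317, 6369 and 3542 at 1 wkpp and at 7621, 5155 and 6296 at 16 wkpp. In MNEB cows it was at 1935, 2537 and 3444 at 1 wkpp and at 4980, 3334 and 7103 at 16 wkpp. The -4 wkpp libraries were thus the 3 highest of the 15, and libraries 1 and 2 of MNEB at 1 wkpp were the lowest. The difference between them was 1.98 ± 0.24, with adjusted p = 0.00045 for exon reads and 0.012 for whole gene reads, which missed the call through the latter. Against SNEB at 1 wkpp it was 1.03 ± 0.24 (adjusted p = 0.079).

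TPI1, which interconverts the triose phosphates, was at 1391 to 2271 at -4 wkpp, 562 to 691 in MNEB at 1 wkpp and 1020 to 2475 in MNEB at 16 wkpp. Its difference between -4 wkpp and MNEB at 1 wkpp was 1.40 ± 0.25, with adjusted p = 0.0023 for exon and 0.06 for whole gene reads. GPI, which turns glucose 6-phosphate into fructose 6-phosphate, was at 2427 to 2949 and 1228 to 1816 in the same groups (0.76 ± 0.21, adjusted p = 0.022 and 0.048). In SNEB cows at 1 wkpp TPI1 was at 887 to 1499 and GPI at 1580 to 2222.

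The phosphofructokinases, which commit the sugar to glycolysis, did not share this pattern of levels between -4 wkpp and MNEB at 1 wkpp. PFKM was at 167 to 205 at -4 wkpp and 172 to 235 in MNEB at 1 wkpp, with a difference of -0.04 ± 0.24. PFKP was at 1869 to 2700 and 1678 to 3150 (-0.11 ± 0.26), and PFKL at 1059 to 1443 and 827 to 1216 (0.21 ± 0.23). None of the 3 was called in any comparison. ALDOC, the aldolase of brain, was at 41.7 to 189 over all libraries with overlapping groups.

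Lower glycolysis runs from glyceraldehyde 3-phosphate to pyruvate and yields the ATP of the pathway. GAPDH, PGK1, PGAM1, ENO1 and PKM, which catalyse its successive steps, each had all 3 libraries at -4 wkpp above all 3 of MNEB at 1 wkpp, as did 23.0% of all genes. Of the 7 genes tested here 4 had an adjusted exon p under 0.01 in that comparison, as did 16.5% of all genes (7.16% higher at -4 wkpp), and none was called in the main tests, since their whole gene p lay between 0.025 and 0.12. limma with quality weights called GAPDH, PGK1, PGAM1 and ENO1, beside 15.1% of all genes. GAPDH is also widely used as a reference gene in this tissue, and like most genes of the group it has processed pseudogene copies in mammals, so reads that fit several places may have been lost in counting.

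GAPDH counts were 3425, 4591 and 3307 at -4 wkpp. They were 2011, 3737 and 1557 in SNEB at 1 wkpp and 4823, 4150 and 3701 in SNEB at 16 wkpp. In MNEB cows they were 1242, 1491 and 2095 at 1 wkpp and 5026, 3650 and 13247 at 16 wkpp. Every MNEB library at 16 wkpp was above every MNEB library at 1 wkpp, and library 3 at 16 wkpp was far above all the others. The difference between MNEB at 1 and at 16 wkpp was -2.00 ± 0.42 (adjusted p = 0.21 for exon and 0.3 for whole gene reads), and -1.46 without that library. Between -4 wkpp and MNEB at 1 wkpp it was 1.26 ± 0.24 (adjusted p = 0.0038 and 0.051), and between SNEB at 1 and 16 wkpp it was -0.91 ± 0.31 (adjusted p = 0.68).

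Library 3 of MNEB at 16 wkpp had the highest value of the 15 libraries for SLC2A1, SLC2A3, HK1, GPI, PFKL, PFKP, TPI1, GAPDH, PGK1, PGAM1, ENO1, PKM, LDHA, FBP1, PGM2 and PPP1R3C. The summed level of its 10 adipocyte genes, 12012, was the lowest of the 15, and its total of 2674844 exon reads was the lowest of its group. Its FABP4 count, a fatty acid carrier of adipocytes, was 3450, against 16432 and 20815 in the other libraries of the group. The part of this in the results was not tested. Without it the median difference of the members between MNEB at 1 and 16 wkpp went from -0.64 to -0.43, and the number with an unadjusted exon p under 0.05 from 20 to 13.

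PGAM1, which moves the phosphate of phosphoglycerate, separated MNEB at 1 wkpp from every other group. It was at 731, 562 and 595 there, and at 1265 or more in the other 12 libraries. The differences were 1.55 ± 0.22 from -4 wkpp (adjusted p = 0.0008 for exon and 0.025 for whole gene reads), 1.26 ± 0.21 from SNEB at 1 wkpp (0.01 and 0.06) and -1.46 ± 0.28 from MNEB at 16 wkpp (0.2 and 0.27). None was called by limma. Without library 1 of MNEB at 1 wkpp the difference from SNEB at 1 wkpp was 1.42 and was called, with adjusted p = 0.0072.

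ENO1, the enolase of most tissues, was at 3217 to 4202 at -4 wkpp and 1221 to 1881 in MNEB at 1 wkpp (1.26 ± 0.23, adjusted p = 0.0028 and 0.045). It was at 2413 to 3785 in SNEB at 1 wkpp. PGK1, which makes the first ATP of the sequence, was at 1357 to 1448 at -4 wkpp, with an SD of 45.4 over 3 libraries, and at 379 to 870 in MNEB at 1 wkpp (1.32 ± 0.30, adjusted p = 0.0082 and 0.12). PKM, the pyruvate kinase of fat and muscle, was at 3390, 4775 and 2474 at -4 wkpp, 2504, 3760 and 1775 in SNEB at 1 wkpp and 6123, 3834 and 4084 in SNEB at 16 wkpp. In MNEB cows PKM was at 1915, 1562 and 2147 at 1 wkpp and at 4417, 2804 and 6385 at 16 wkpp. The PKM libraries at 1 and at 16 wkpp did not overlap in either energy balance group, and the differences were -1.22 ± 0.30 in MNEB (adjusted p = 0.23) and -0.86 ± 0.30 in SNEB (adjusted p = 0.68).

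The tissue-restricted members behaved otherwise. ENO2, the enolase of neurons, was at 7.18 to 24.3 at -4 wkpp and in SNEB cows, at 13.6, 64.8 and 91.9 in MNEB at 1 wkpp and at 11.7, 15.4 and 46 in MNEB at 16 wkpp. Without library 1 of MNEB at 1 wkpp its difference between SNEB and MNEB at 1 wkpp went from -1.71 ± 0.80 to -3.08 and was called (adjusted p = 0.0071). That call rests on few reads, since ENO2 had 16, 18 and 11 exon reads in SNEB and 13, 24 and 25 in MNEB at 1 wkpp. ENO3, the enolase of muscle, was at 71 to 118 at -4 wkpp and at 89.2 to 175 in MNEB at 1 wkpp. PGAM2, the muscle phosphoglycerate mutase, was at 5.4 or less in every library, with no read in 11 of 15.

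**Figure D3:**
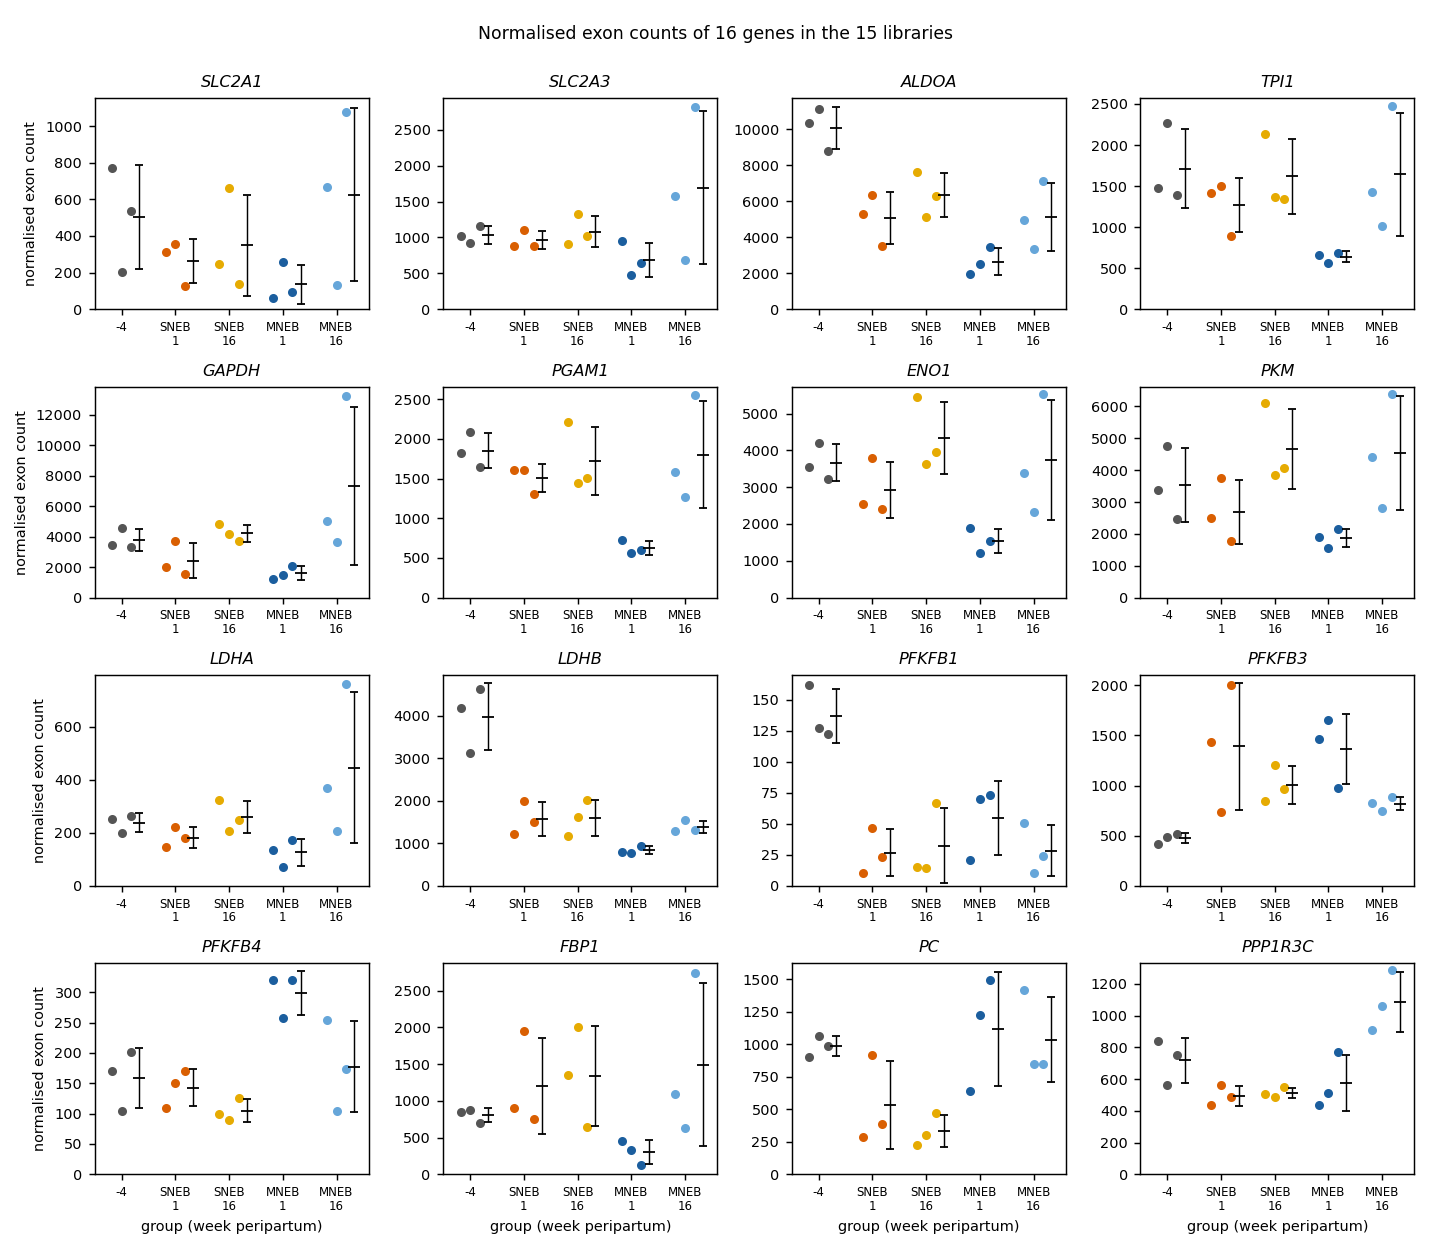
Normalised exon counts (y axes, from 0) of 16 genes in the 5 groups (x axes, week peripartum). Points are libraries in order of depth, and the bar is the mean with the SD (n = 3). LDHB and PFKFB1 are highest in the 3 libraries at -4 wkpp, PFKFB3 is lowest there, and PGAM1 is lowest in the 3 libraries of MNEB at 1 wkpp.

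Lactate dehydrogenase joins pyruvate and lactate, and its H subunit, from LDHB, predominates in oxidative tissues while the M subunit, from LDHA, predominates in glycolytic ones. LDHB was at 4188, 3113 and 4633 at -4 wkpp. It was at 1228, 1993 and 1499 in SNEB at 1 wkpp, 1173, 1613 and 2025 in SNEB at 16 wkpp, 808, 784 and 941 in MNEB at 1 wkpp and 1282, 1540 and 1308 in MNEB at 16 wkpp. The -4 wkpp libraries lay above all 12 others, and those of MNEB at 1 wkpp below all 12 others. The difference between these extremes was 2.24 ± 0.22, with adjusted p = 0.00016 for exon and 0.0049 for whole gene reads. Against SNEB at 1 wkpp it was 1.35 ± 0.23 (adjusted p = 0.028 and 0.052). Between 1 and 16 wkpp LDHB differed by -0.72 ± 0.20 in MNEB (adjusted p = 0.24) and by -0.04 ± 0.25 in SNEB. With a library left out of the -4 wkpp vs MNEB 1 wkpp comparison the difference stayed between 2.12 and 2.40, and the call was kept without library 1 of MNEB at 1 wkpp and lost without any of the other 5.

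LDHA was at 253, 200 and 264 at -4 wkpp, 146, 222 and 179 in SNEB at 1 wkpp and 323, 207 and 250 in SNEB at 16 wkpp. It was at 136, 73 and 173 in MNEB at 1 wkpp and 371, 206 and 761 in MNEB at 16 wkpp. Its libraries separated at -4 wkpp from MNEB at 1 wkpp (0.96 ± 0.31, adjusted p = 0.04 and 0.19) and between 1 wkpp and 16 wkpp in MNEB cows (-1.68 ± 0.49, adjusted p = 0.26). The 3 libraries of MNEB at 1 wkpp held 130, 27 and 47 LDHA exon reads.

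Fructose 2,6-bisphosphate is the strongest activator of phosphofructokinase and inhibits fructose 1,6-bisphosphatase, and the PFKFB enzymes both make and remove it, PFKFB3 mostly making it. PFKFB3 was at 421, 490 and 518 at -4 wkpp, 1436, 735 and 1999 in SNEB at 1 wkpp and 845, 1210 and 966 in SNEB at 16 wkpp. It was at 1466, 1656 and 978 in MNEB at 1 wkpp and 830, 751 and 883 in MNEB at 16 wkpp. All 12 libraries taken after calving were above the 3 at -4 wkpp. The difference from -4 wkpp was -1.49 ± 0.24 for MNEB at 1 wkpp (adjusted p = 0.0015 and 0.034) and -1.44 ± 0.33 for SNEB at 1 wkpp (0.078 and 0.11), and neither was called. Without library 2 of SNEB at 1 wkpp, which had the lowest PFKFB3 of its group, the latter was -1.85 and was called (adjusted p = 0.0016).

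PFKFB1, the liver and muscle form, was at 122 to 162 at -4 wkpp and at 10.3 to 73.5 in the other 12 libraries. The difference was 2.61 ± 0.46 from SNEB at 1 wkpp (adjusted p = 0.031 and 0.048), and without library 2 of that group, the highest of its 3, it was 3.15 and was called (adjusted p = 0.0049). From MNEB at 1 wkpp it was 1.93 ± 0.46 (0.011 and 0.18), and 0.95 without library 1 of MNEB. Exons held only 5.76 to 23.7% of the reads on PFKFB1, so its whole gene value rests mostly on introns.

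PFKFB4, first described in testis, was at 170, 104 and 202 at -4 wkpp, 109, 150 and 170 in SNEB at 1 wkpp and 100, 88.8 and 126 in SNEB at 16 wkpp. It was at 320, 257 and 320 in MNEB at 1 wkpp and 254, 105 and 173 in MNEB at 16 wkpp. Its exon difference was -0.99 ± 0.29 between -4 wkpp and MNEB at 1 wkpp (adjusted p = 0.026), where its whole gene difference was -0.25 ± 0.33 (0.72). Between SNEB and MNEB at 1 wkpp the pair was -1.09 ± 0.26 (0.025) and -0.19 ± 0.24 (0.64). PFKFB2, the heart form, was at 283 to 285 at -4 wkpp and at 347 to 864 in MNEB at 1 wkpp, with exon and whole gene differences of -0.85 ± 0.29 (0.05) and -0.10 ± 0.24 (0.84). Its exon difference was -0.54 without library 3 and -1.19 without library 1 of MNEB.

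**Figure D4:**
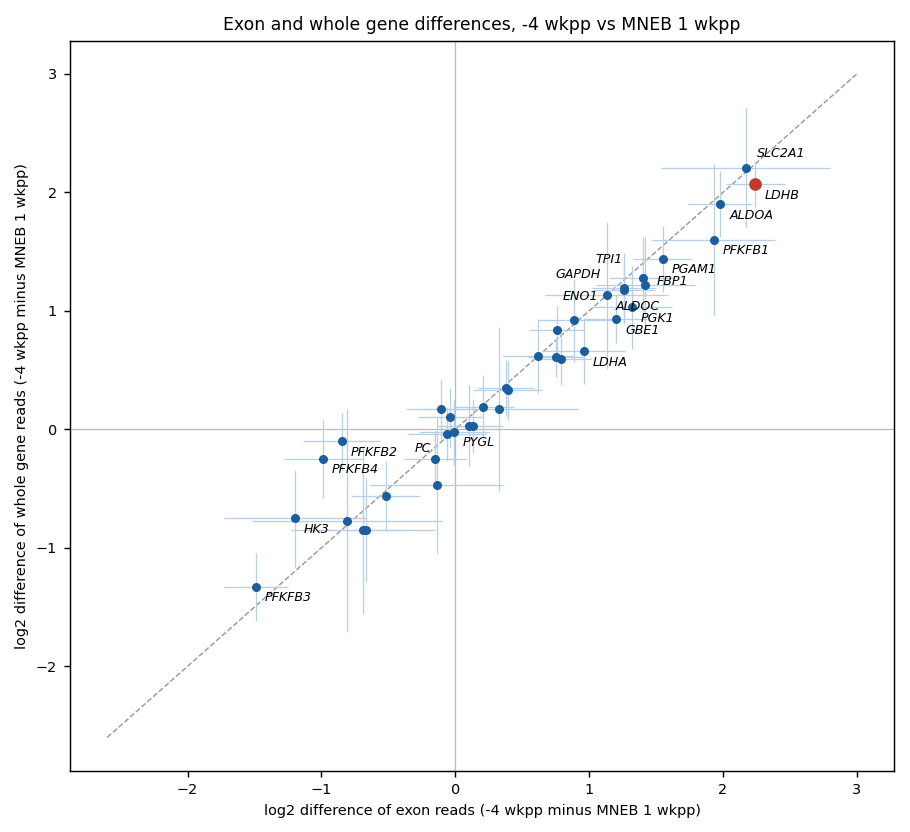
Log2 differences between -4 wkpp and MNEB 1 wkpp for 38 genes, in exon reads (x axis) and whole gene reads (y axis), with standard errors. The dashed line marks equal values and the red point is LDHB, the gene that was called. PFKFB2 and PFKFB4 lie above the line, with exon differences of -0.85 and -0.99 and whole gene differences of -0.10 and -0.25.

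The share of a gene's reads that lay on exons was compared between the 6 MNEB libraries and the other 9. For PFKFB2 it was 45.6 to 63% against 27.2 to 32.8%, for PFKFB4 50.2 to 72.7% against 25.4 to 38%, and for PFKFB3 72.8 to 87.2% against 63 to 69.9%. These were the 3 of 39 members whose share was higher in all MNEB libraries, and no member had the reverse, where 11.7% and 0.372% of 10491 genes did, so the count was no larger than that of genes in general. Over all genes exons held 48.2 to 60.8% of the reads in the MNEB libraries and 40.7 to 54.6% in the others.

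**Figure D5:**
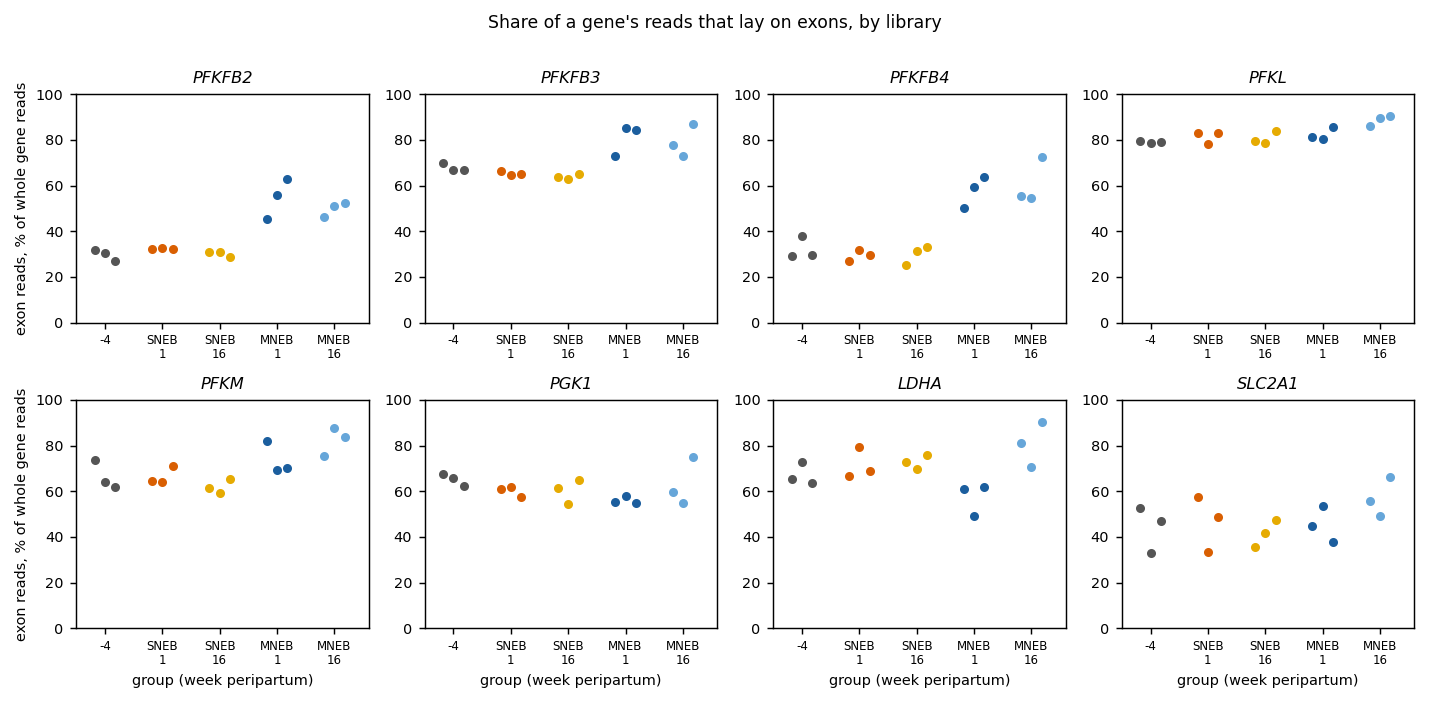
Exon reads as a percentage of whole gene reads (y axes, 0 to 100) for 8 genes in the 5 groups (x axes, week peripartum), with a point per library. The 6 MNEB libraries stand above the other 9 for PFKFB2, PFKFB3 and PFKFB4 and overlap them for PFKL, PFKM, PGK1, LDHA and SLC2A1.

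Fat lacks the full route to free glucose, but holds some gluconeogenic enzymes, among them pyruvate carboxylase (PC), which makes the oxaloacetate used for fatty acid and glyceride synthesis. PC was at 905, 1062 and 990 at -4 wkpp. It was at 290, 917 and 387 in SNEB at 1 wkpp, 227, 301 and 468 in SNEB at 16 wkpp, 638, 1224 and 1492 in MNEB at 1 wkpp and 1414, 846 and 845 in MNEB at 16 wkpp. At 16 wkpp the SNEB libraries all lay below the MNEB libraries, and the difference was -1.68 ± 0.30 (adjusted p = 0.0049 for exon and 0.0076 for whole gene reads). At 1 wkpp library 2 of SNEB overlapped the MNEB range, and the difference was -1.12 ± 0.45 (0.12 and 0.37). Leaving out any of the 6 libraries at 16 wkpp gave -1.95 to -1.42 and no call.

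FBP1, fructose 1,6-bisphosphatase, which is abundant in liver and in macrophages, was at 854, 870 and 692 at -4 wkpp, 901, 1948 and 757 in SNEB at 1 wkpp and 1359, 2012 and 643 in SNEB at 16 wkpp. It was at 448, 335 and 125 in MNEB at 1 wkpp and 1088, 635 and 2743 in MNEB at 16 wkpp. MNEB at 1 wkpp lay below every other group, with differences of 1.42 ± 0.37 from -4 wkpp (adjusted p = 0.017 and 0.11), 1.87 ± 0.49 from SNEB at 1 wkpp (0.034 and 0.17) and -2.10 ± 0.58 from MNEB at 16 wkpp (0.24 and 0.41). The summed macrophage genes were 4975 to 7105 at -4 wkpp, 7585 to 11737 in SNEB at 1 wkpp, 10452 to 13710 in SNEB at 16 wkpp, 2010 to 6981 in MNEB at 1 wkpp and 1969 to 2269 in MNEB at 16 wkpp, and their part in the FBP1 differences was not tested. FBP2, the muscle form, was at 32.4 or less in every library and passed the low-count filter in 3 of the 6 comparisons. It was at 1.73 to 2.8 at -4 wkpp, with 3 exon reads per library, and at 11.9 to 19 in SNEB at 1 wkpp. It passed the filter there only through the SNEB libraries. The exon difference of -2.75 ± 0.60 thus rests on counts near the floor, and that of whole gene reads was -0.85 ± 0.84 (0.068 and 0.78).

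Of the genes that break glycogen down, none was called. PYGL, the liver phosphorylase, was at 1376, 1405 and 1049 at -4 wkpp, 1775, 2002 and 1345 in SNEB at 1 wkpp and 2006, 1576 and 1556 in SNEB at 16 wkpp. It was at 1576, 919 and 1448 in MNEB at 1 wkpp and 1499, 1247 and 1343 in MNEB at 16 wkpp. Its differences lay between -0.41 and 0.41 in all 6 comparisons. PYGB, the brain form, was at 364 to 698 with overlapping libraries and differences between -0.15 and 0.21. PYGM, the muscle form, was at 7.1 to 26.9 in SNEB cows and at 14.6 to 81.2 in MNEB cows, and its difference at 16 wkpp was -1.76 ± 0.56 (adjusted p = 0.049 and 0.11). PGM1, which links glucose 1-phosphate and 6-phosphate, was at 1042 to 1389 at -4 wkpp and 634 to 809 in MNEB at 1 wkpp (0.79 ± 0.22, 0.019 and 0.15), and PGM2, which acts mainly on pentose phosphates, was at 1278 to 2692 with differences between -0.53 and 0.49.

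In glycogen synthesis PPP1R3C, the subunit that brings protein phosphatase 1 to glycogen and favours its synthesis, was the gene called. It was at 843, 562 and 750 at -4 wkpp, 435, 562 and 485 in SNEB at 1 wkpp, 505, 489 and 548 in SNEB at 16 wkpp, 439, 513 and 772 in MNEB at 1 wkpp and 909, 1059 and 1286 in MNEB at 16 wkpp. The MNEB libraries at 16 wkpp were the 3 highest of the 15. The difference between SNEB and MNEB at 16 wkpp was -1.05 ± 0.17 (adjusted p = 0.0034 for exon and 0.0092 for whole gene reads), and the call was lost with any of the 6 libraries left out, at -1.18 to -0.93. With no filter on low counts neither PC nor PPP1R3C was called, at differences of -1.68 and -1.05. At 1 wkpp the difference was -0.12 ± 0.24. PPP1R3B, a related targeting subunit, had -0.68 ± 0.27 at 16 wkpp (0.093 and 0.041), and -0.28 without library 1 of MNEB.

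GYS1, the glycogen synthase of muscle and fat, was at 393, 376 and 386 at -4 wkpp, 275, 290 and 186 in SNEB at 1 wkpp and 246, 148 and 241 in SNEB at 16 wkpp. It was at 292, 338 and 504 in MNEB at 1 wkpp and 300, 229 and 376 in MNEB at 16 wkpp. The -4 wkpp libraries separated from SNEB at 1 wkpp (0.64 ± 0.20, adjusted p = 0.18 and 0.56). GBE1, the branching enzyme, was at 746 to 959 at -4 wkpp, 301 to 404 in MNEB at 1 wkpp and 653 to 703 in MNEB at 16 wkpp. Its difference between -4 wkpp and MNEB at 1 wkpp was 1.20 ± 0.23 (0.0033 and 0.031), and between MNEB at 1 and at 16 wkpp -0.92 ± 0.21 (0.22 and 0.27). UGP2, which makes UDP-glucose, was at 1578 to 1922 at -4 wkpp and 885 to 1186 in MNEB at 1 wkpp (0.75 ± 0.21, 0.019 and 0.074). GYG1, the glycogen primer, ranged from 202 to 1156, both extremes within MNEB at 1 wkpp.

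Whether the change from 1 to 16 wkpp differed between SNEB and MNEB cows was tested as a difference of differences over 12 libraries. No gene was called by limma among 10226 tested (0%), with 6 listed genes and 503 genes in all at an unadjusted exon p under 0.05. With a library left out the 6 became 12 without library 2 of MNEB at 16 wkpp and 3 without library 2 of MNEB at 1 wkpp or library 3 of MNEB at 16 wkpp, and the 503 became 899 without library 1 of MNEB at 1 wkpp. The values for PGAM1 and PPP1R3C were 1.27 ± 0.37 and 0.93 ± 0.30 (adjusted p = 0.98 for both). The changes in PGAM1 were -0.19 ± 0.20 in SNEB and -1.46 ± 0.28 in MNEB, and those in PPP1R3C -0.08 ± 0.15 and -0.98 ± 0.25.

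Beyond the members, 50 further genes of glucose and glycogen handling were listed, of which 38 had recovered reads. Between -4 wkpp and MNEB at 1 wkpp 4 of 32 tested were called, all higher at -4 wkpp, against 1.03% of all genes in that direction. They were PCK1, which makes phosphoenolpyruvate for glyceride glycerol (4.63 ± 0.47), the monocarboxylate carriers SLC16A7 (3.98 ± 0.35) and SLC16A1 (2.90 ± 0.24), which move lactate and pyruvate, and MPC1 of the mitochondrial pyruvate carrier (2.29 ± 0.23). With a library left out SLC16A7 (3.50 to 4.29) and MPC1 (2.16 to 2.38) were called in 1 of 6 cases, without library 1 of MNEB. PCK1 (4.29 to 5.08) and SLC16A1 (2.77 to 3.01) were called in none of the 6. PCK1 was at 3886, 1422 and 3562 at -4 wkpp and at 86.5, 116 and 176 in MNEB at 1 wkpp. None of 32 was called between -4 wkpp and SNEB at 1 wkpp, where PCK1 had a difference of 5.23 ± 0.52 (adjusted p = 0.0041 and 0.017), and 1 of 30 was called at 16 wkpp, SLC16A7, higher in SNEB than in MNEB by 2.23 ± 0.26, against 1.04% of all genes in that direction. That call was kept in 3 of 6 cases with a library left out, at 2.02 to 2.40, and lost without library 2 or 3 of SNEB or library 2 of MNEB. SLC2A4, the insulin-dependent transporter GLUT4, was not called, with 1.25 ± 0.30 between -4 wkpp and MNEB at 1 wkpp (0.01 and 0.11), 2.03 ± 0.26 against SNEB at 1 wkpp (0.009 and 0.037) and -1.47 ± 0.24 between SNEB and MNEB at 16 wkpp (0.0037 and 0.011). In the remaining 3 comparisons 0 of 27, 31 and 32 genes were called.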

How the data were processed

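Per the study's methods, adipose RNA was depleted of ribosomal RNA, made into stranded libraries and read as single ends. The authors demultiplexed with bcl2fastq 2.15.0, trimmed with Cutadapt 1.3, aligned with TopHat2 to bosTau8, counted reads with htseq-count over exons and over whole genes, and compared groups with DESeq2. The deposited tables hold, for 6 comparisons, a mean of scaled reads over 6 libraries in each analysis, next to the authors' fold changes and p-values, which were not used. There were 0 columns of other samples.

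Each deposited mean is a sum of whole reads divided by size factors. Those factors were read from the smallest means, and the reads of all 15 libraries were solved jointly from the 6 tables (Python 3.11.15). All 13988 entries, 92 spike-ins among them, gave back the deposited means. Entries whose solution could not be shown to be unique were left out, by a limit chosen after seeing the data, which kept 13970 entries for exons and 13959 for whole genes. All 87 spike-ins that were kept had the same reads in both analyses. Planned tests on counts became limma tests on these recovered reads. Libraries are known by group only.

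limma 3.58.1 (voom, median-of-ratios scaling, mean of at least 10 scaled reads, exon and whole gene analyses, Benjamini-Hochberg adjustment over all genes) was run per comparison, with 2-sided p-values, and was tested on simulated data. A call needed an adjusted p below 0.01 in both analyses. Alternatives were exon or whole gene reads alone, a threshold of 0.05, library totals as scaling, limma-trend, quality weights, all 15 libraries in 1 fit, no filter, and leaving out each library.

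The members, the role, pathway and marker lists and the tests were chosen with earlier results of these data known. All members are accounted for, and the value in every library is given for 13 genes chosen for their place in the pathway, called genes among them, and for ALDOA, which was added after its values were seen. The p-values weigh a difference between groups against the spread of libraries within groups, a spread that limma moderates over all genes. Repeated sampling of the same cows could not be modelled.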

Additional observations from a re-analysis of the deposited data

Results flagged for a closer look

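Outside the measurement of bovine genes, the tables also hold synthetic spike-in RNAs. Over the 87 of them with recovered reads, they took 3.98 to 26.1% of the exon and spike-in reads in the libraries of MNEB at 1 wkpp and 3.82 to 10.5% in those of MNEB at 16 wkpp, against 0.653 to 2.09% at -4 wkpp and 0.257 to 1.7% in SNEB cows. Their part in the differences of the glycolytic and glycogen genes was not tested.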

How the results depend on the processing

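In the comparisons with any call the count moved by over 1.5 times in 9 of 14 alternatives (-4 wkpp vs MNEB 1 wkpp) and 7 of 14 (SNEB vs MNEB at 16 wkpp), the cause was not tested, and counts of 0 elsewhere say little about stability. Between -4 wkpp and MNEB at 1 wkpp 1 gene became 9 with exon reads alone (16.5% of all genes), 8 at a threshold of 0.05 (10.2%), 10 with quality weights (15.1%) and 5 with all 15 libraries in 1 fit (10.4%). Between -4 wkpp and SNEB at 1 wkpp 0 became 1 at a threshold of 0.05 (0.615%) and 3 with quality weights, and between SNEB and MNEB at 1 wkpp 0 became 1 with quality weights. Between SNEB and MNEB at 16 wkpp 2 became 0 with no filter on low counts. Leaving out each library gave 0 to 1 for -4 wkpp vs MNEB 1 wkpp, 0 to 2 for -4 wkpp vs SNEB 1 wkpp and for SNEB vs MNEB at 1 wkpp, and 0 throughout for SNEB vs MNEB at 16 wkpp, MNEB 1 vs 16 wkpp, SNEB 1 vs 16 wkpp and the difference of differences. With a library out, 1 group has 2 libraries only. Over 30 gene results with 360 alternative values none changed direction, 323 kept their side of the threshold, 19 lost and 18 gained the call. These 30 do not stand for every member difference, since others changed sign with a library left out. Examples are GYG1 between -4 wkpp and MNEB at 1 wkpp (-0.65 to 0.68) and PFKFB3 between SNEB and MNEB at 1 wkpp (-0.38 to 0.35). Library totals as scaling moved the median difference of all genes by -0.10 to 0.05. The planned fallback on group levels was not run, since reads were recovered. No paired analysis was possible because the recovered libraries carry a group but no replicate number or animal. The total of 1934198 exon reads in the shallowest library limits genes of few reads, and FBP2, PGAM2 and SLC2A5 had few reads in the deeper libraries too.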
